A study of Mus musculus with 8 samples.

Results

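The enzymes that make, break down and redirect arginine were measured in resident microglia and invading macrophages of the ischemic mouse brain. They are the arginases Arg1 and Arg2, the inducible nitric oxide synthase Nos2, the arginine-recycling enzymes Ass1 and Asl, and the ornithine-consuming enzymes Odc1 and Oat. Members were the genes of these names, taken with every non-control probe whose gene name in the array files equals the symbol. This gave 7 of 22441 named genes and 11 of 55681 probes, and all 7 genes and 11 probes were bright enough to be tested, among 13224 genes and 29365 probes.

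Arginine stands at a branch point in macrophages. Arginases split it into ornithine and urea, and ornithine feeds polyamines through ornithine decarboxylase (Odc1) or proline and glutamate through ornithine aminotransferase (Oat). Nitric oxide synthases turn it instead into nitric oxide and citrulline, and argininosuccinate synthase (Ass1) with argininosuccinate lyase (Asl) rebuilds arginine from that citrulline. High Arg1 and high Nos2 are widely used as marks of alternatively and of classically activated mouse macrophages.

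All 8 samples came from C57BL/6 mice that carried transplanted bone marrow, underwent 30 min of focal brain ischemia (MCAo, occlusion of the middle cerebral artery) with 7 days of reperfusion, and received no specific treatment. Resident microglia were sorted as GFP+ cells (n = 4) and invading macrophages as RFP+ cells (n = 4). The 4 animals, A to D, each gave 1 sample of either kind, numbered here as replicates 1 to 4. The labels name the fluorescent protein of each sort but neither its promoter nor the age of the mice, there was no uninjured or untreated group, and the RNA was amplified by PCR before labelling.

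Each sample was hybridised to 1 one-colour array, on which 45.7% to 57.1% of probes were well above background and none was saturated. All 11 microglia markers were well above background on every microglia array, and 9 to 11 of them on the macrophage arrays. All 10 monocyte markers were so on every macrophage array, and 9 or 10 of them on the microglia arrays, so that their detection alone does not separate the groups. The summed level of the microglia markers was 953 to 1219 on the microglia and 185 to 490 on the macrophage arrays, and that of the monocyte markers 20.3 to 50.2 and 125 to 188. Macrophage replicate 2, from animal B, stood apart: it correlated with the other macrophage arrays at r = 0.828 to 0.867 across genes, while those 3 correlated with each other at 0.940 to 0.960. All 13 endothelial markers were well above background on it, and 7 of them were so on no microglia array. The summed level of these endothelial markers was 926 on macrophage replicate 2 (linear signal, each array's 75th percentile set to 1), 29.0, 70.7 and 12.4 on macrophage replicates 1, 3 and 4, and 4.37 to 5.73 on the microglia arrays. The difference of every probe of a member is therefore given with and without that array.

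The arginase probes are printed because Arg1 and Arg2 are separate genes for the same reaction and only a probe that tells them apart can assign a signal to one of them. The Odc1 probe is printed because it was the probe of a member on which the groups differed most clearly, and the other Odc1 probes behaved differently. All are 60-base probes as the array files give them, 5′ to 3′ in lower case, and all read as coding sequence of their enzyme.
Arg1: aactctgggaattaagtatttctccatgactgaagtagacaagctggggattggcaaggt
Arg2: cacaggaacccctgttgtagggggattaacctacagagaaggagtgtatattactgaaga
Odc1: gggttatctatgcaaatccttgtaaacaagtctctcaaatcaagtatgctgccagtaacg
The longest run of bases shared by the Arg1 and Arg2 probes was 7, and no probes of different members shared more than 8. This compares probes with each other only. Whether either arginase probe matches the transcript of the other arginase was not checked, so the runs do not show that the probes tell the genes apart. In build mm9 the files place the Arg1 probe at chr10:24636194-24636253, the Arg2 probe at chr12:80252972-80253031 and this Odc1 probe at chr12:17554799-17554858. The remaining probes lie at chr11:78773567-78773626 (Nos2), chr2:31375998-31376057 and chr2:31376068-31376127 (Ass1), chr5:130487964-130488549 (Asl) and chr7:139749726-139749785 (Oat). The Asl probe spans 586 bases of the genome with 60 bases of sequence and so crosses an intron.

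The question was whether cells arriving from the blood handle arginine differently from the brain's own microglia. Over all 8 arrays no member passed the test: 0 of 7 were called higher and 0 lower (limma, Benjamini-Hochberg adjusted p under 0.05 over all genes tested), where 7.3% of all genes were called, 3.01% higher and 4.3% lower in macrophages. At an unadjusted p under 0.05 there was 1 member, Odc1, which was higher, against 24.5% of all genes and 12.6% in that direction. Of the 7 differences, 6 were positive, with a median of 0.65 on the log2 scale against 0.04 over all genes tested. Without macrophage replicate 2, Odc1, Arg2 and Oat were called higher, 3 of 7 members where 9.44% of all genes were called higher. With 4 arrays a group the precision is limited, and in these bulk samples fewer cells of a type and less RNA per cell cannot be told apart.

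**Figure D1:**
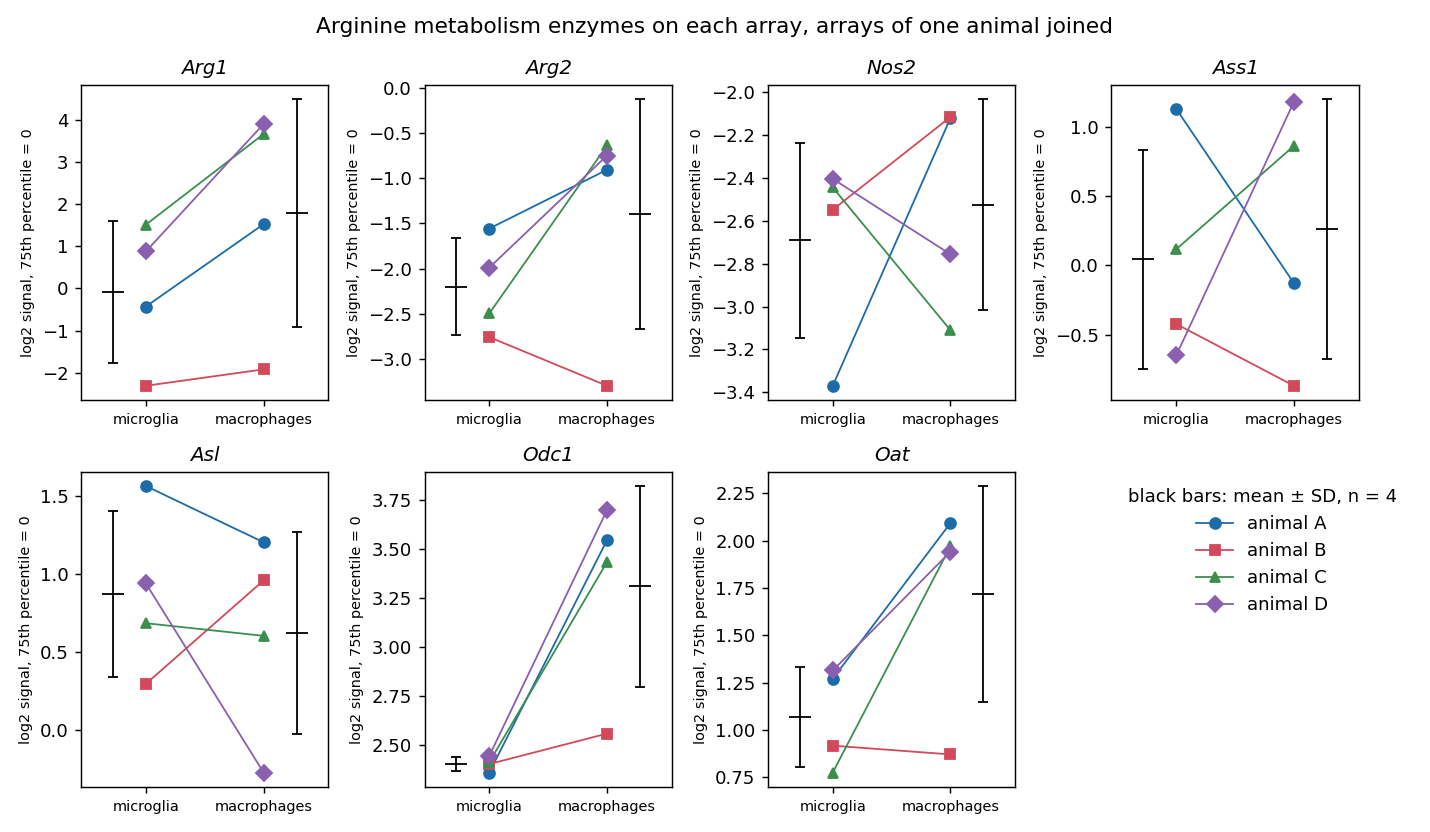
Level of each arginine enzyme on every array (log2 signal relative to the array's 75th percentile), with microglia and macrophages side by side, coloured lines joining the samples of each animal and black bars for the mean and SD (n = 4). Odc1 is the only enzyme whose groups do not overlap, and macrophage replicate 2, from animal B, lies lowest of the macrophages for Arg1, Arg2, Odc1, Oat and Ass1.

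Arg1, the cytosolic arginase, had log2 levels of -0.43, -2.31, 1.51 and 0.88 on microglia replicates 1 to 4, relative to the array's 75th percentile as for every level that follows. On macrophage replicates 1 to 4 it had 1.52, -1.92, 3.66 and 3.90. Macrophage replicates 1, 3 and 4 lay above every microglia array, and replicate 2 lay below 3 of the 4, so the groups overlapped. The means were -0.09 ± 1.69 in microglia and 1.79 ± 2.70 in macrophages (SD, n = 4 each), a difference of 1.88, or 3.68-fold, with a 95% interval from -1.18 to 4.94 and an adjusted p of 0.430 (limma). An exact two-sided permutation test of the 70 splits of the arrays gave p = 0.257, where 0.0286 is the smallest p that 4 against 4 arrays allow. Those splits leave the pairing by animal aside. Exchanging samples within animals only, an exact two-sided test cannot go below 0.125 with 4 animals, and Arg1 reached that value.

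Arg1 varied widely within each group. Its SD was larger than that of 98.5% of all tested genes in microglia and of 98.8% in macrophages. Animal B had the lowest Arg1 signal of both groups, as for 17.0% of all genes. Macrophages exceeded the microglia of the same animal in 4 of 4 animals, by 1.95, 0.39, 2.15 and 3.03 in animals A to D (SD 1.1), as did 18.4% of all genes. With the animal as a block the same difference of 1.88 had a 95% interval from 0.73 to 3.03, and its adjusted p was 0.0898 (limma; unadjusted 0.0077), which missed the threshold.

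The size of the Arg1 difference moved with single arrays. Without macrophage replicate 2 the macrophage mean was 3.03 ± 1.31 (SD, n = 3) and the difference 3.12, or 8.68-fold, with an adjusted p of 0.0648 (limma). It was smaller without microglia replicate 2, at 1.14 or 2.20-fold, without macrophage replicate 4, at 1.18 or 2.26-fold, and without macrophage replicate 3, at 1.26 or 2.39-fold (adjusted p = 0.694, 0.665 and 0.655). With slide and animal as blocks together the difference was 2.38, or 5.19-fold, and passed with an adjusted p of 0.0319 (limma), the only member called in that fit, where 2.53% of all genes were called higher. In that fit the difference comes from animals A, C and D, since animal B is the only one whose samples lay on different slides. Within slide 1, with 2 microglia arrays and 1 macrophage array, the difference was 2.90 (adjusted p = 0.215, limma), and within slide 2, with 2 microglia and 3 macrophage arrays, it was 0.69 (adjusted p = 0.910).

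Arg2, the mitochondrial arginase, was measured at -1.56, -2.76, -2.5 and -1.99 on microglia replicates 1 to 4 and at -0.91, -3.30, -0.64 and -0.75 on macrophage replicates 1 to 4. Macrophage replicates 1, 3 and 4 lay close together and above all microglia arrays, and replicate 2 lay below all of them. Arg2 was well above background on every array but dim. On microglia replicates 2 and 3 and macrophage replicate 2 it lay within the range of Nos2 over all arrays, -3.37 to -2.12. The means were -2.2 ± 0.53 and -1.40 ± 1.27 (SD, n = 4 each), and the difference of 0.80, or 1.75-fold, had a 95% interval from -0.57 to 2.18 and an adjusted p of 0.454 (limma; exact permutation p = 0.257). Macrophages were higher in 3 of 4 animals, the exception being animal B.

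Arg2 was called higher in macrophages once macrophage replicate 2 was left out. Their mean was then -0.76 ± 0.13 (SD, n = 3), and the difference 1.44, or 2.71-fold (adjusted p = 0.0203, limma). Arg2 was also called where limma weighted each array by its spread, with a difference of 1.44 (adjusted p = 0.0255), and without both arrays of animal B, with 1.25 (adjusted p = 0.0451). Within slides 1 and 2 the differences were 1.25 and 0.68.

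Nos2, which makes nitric oxide from arginine in activated macrophages, was close to the array background in both groups. Its levels were -3.37, -2.55, -2.45 and -2.41 in microglia and -2.12, -2.12, -3.11 and -2.76 in macrophages (replicates 1 to 4), and it was well above background on 3 of 4 microglia arrays and 4 of 4 macrophage arrays. Among all probes that passed this mark, the dimmest lay at -4.23 to -3.60 on the microglia arrays and -5.0 to -3.42 on the macrophage arrays. The groups overlapped, and the difference was 0.17, or 1.12-fold, with a 95% interval from -0.59 to 0.92 (adjusted p = 0.80, limma; exact permutation p = 0.629).

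The animals did not share a direction for Nos2. Macrophages lay 1.25 and 0.43 above the microglia of animals A and B and 0.66 and 0.35 below those of animals C and D. Without macrophage replicate 2 the difference was 0.03 (adjusted p = 0.963, limma), and within slides 1 and 2 it was 0.84 and -0.24. The width of the interval does not show that the groups were alike.

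Ass1, the enzyme that joins citrulline to aspartate, was at 1.13, -0.42, 0.12 and -0.65 in microglia and at -0.13, -0.87, 0.86 and 1.18 in macrophages. The groups overlapped and the animals were split, with macrophages lower in A and B and higher in C and D. The difference was 0.22, or 1.16-fold, with a 95% interval from -1.02 to 1.46 (adjusted p = 0.846, limma). It was 0.60 without macrophage replicate 2 (adjusted p = 0.442), and within slides 1 and 2 it was -0.48 and 0.66.

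A further Ass1 probe, which the files also assign to a transcript of the gene Gm5424, gave a difference of -0.07 (95% interval from -1.41 to 1.27, adjusted p = 0.957 over all probes, limma), which turned to 0.0469 without macrophage replicate 2 (adjusted p = 0.970). It too had macrophages lower in animals A and B, by 2.52 and 0.07, and higher in C and D, by 0.58 and 1.72. It was not, on macrophage replicate 1, well above background. Its signal cannot be assigned to Ass1 alone.

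Asl, which releases arginine and fumarate from argininosuccinate, was the only member with a negative difference. It was at 1.56, 0.29, 0.68 and 0.94 in microglia and at 1.20, 0.96, 0.60 and -0.27 in macrophages. The groups overlapped, and the difference of -0.25 had a 95% interval from -1.14 to 0.65 (adjusted p = 0.743, limma). Macrophages were higher in 1 of 4 animals, animal B. The difference was -0.36 without macrophage replicate 2 (adjusted p = 0.598), and within slides 1 and 2 it was 0.27 and -0.38.

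Odc1, the first and rate-limiting enzyme of polyamine synthesis, was the member whose groups separated. It was at 2.36, 2.40, 2.41 and 2.44 on the microglia arrays and at 3.55, 2.56, 3.44 and 3.7 on the macrophage arrays. Every macrophage array lay above every microglia array, replicate 2 by the smallest margin. Such a separation with macrophages higher occurred in 8.43% of all tested genes.

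The microglia arrays gave Odc1 an SD of 0.04, larger than in only 0.166% of tested genes. The means were 2.40 ± 0.04 and 3.31 ± 0.51 (SD, n = 4 each), a difference of 0.91, or 1.87-fold, with a 95% interval from 0.27 to 1.54. The unadjusted p was 0.0108 and the adjusted p 0.0884 (limma), and the exact permutation p was 0.0286, the smallest that splits across animals allow. Exchange within animals gave an exact p of 0.125, again the smallest possible. With the animal as a block the adjusted p was 0.141, and the 4 animals gave 1.19, 0.16, 1.02 and 1.26.

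Odc1 was called higher in macrophages without replicate 2, by 1.16 or 2.23-fold (adjusted p = 0.00564, limma), with a macrophage mean of 3.56 ± 0.13 (SD, n = 3). It was also called with array weights, by 1.07 (adjusted p = 0.00586), and after normexp background correction and quantile normalization, by 0.68 (adjusted p = 0.0467), where it was the only member called among 3.69% of all genes called higher. With the mean of its 4 tested probes in place of the brightest, the difference fell to 0.49, or 1.40-fold, and was not called (adjusted p = 0.438). Within slides 1 and 2 the differences were 1.17 and 0.80 (adjusted p = 0.416 and 0.542).

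The other 3 Odc1 probes did not separate the groups. Probes A_55_P1995173 and A_55_P1982818 lie at chr12:17557831-17557890 and chr12:17557869-17557928 and share 22 bases. The files place A_55_P2035102, made from a cDNA clone, on chromosome 17 (chr17:93858619-93858678), whereas Odc1 lies on chromosome 12, and 54 of its 55 bases aligned to A_55_P1995173 match, the exception being T14G, counted from 1 at the 5′ end of A_55_P1995173. Signal of that probe cannot be told apart from that of a near-identical copy elsewhere.

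Probe A_55_P1982818 was the most variable, at -2.84, -1.0, -0.45 and -2.45 on the microglia arrays and at -0.59, -2.35, -1.28 and -0.29 on the macrophage arrays. Macrophages were higher on it in animals A and D and lower in B and C. On A_55_P1995173 the microglia arrays were at -0.61, -0.12, 0.37 and -0.45 and the macrophage arrays at -0.04, -0.85, 0.25 and 0.57, with the same split of the animals.

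The 3 differences were 0.18 (95% interval from -0.64 to 1.01) for A_55_P1995173, 0.56 (from -0.90 to 2.02) for A_55_P1982818 and 0.30 (from -0.31 to 0.90) for A_55_P2035102. The adjusted p-values over all probes were 0.795, 0.636 and 0.541 (limma), where 6.45% of probes were called. Macrophages were higher in 2, 2 and 3 of 4 animals. Leaving out macrophage replicate 2 gave 0.46, 0.97 and 0.42 (adjusted p = 0.330, 0.320 and 0.305), against 1.16 (adjusted p = 0.00863) for the coding probe in the same fit over probes. All were positive, and only the coding probe was called.

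**Figure D2:**
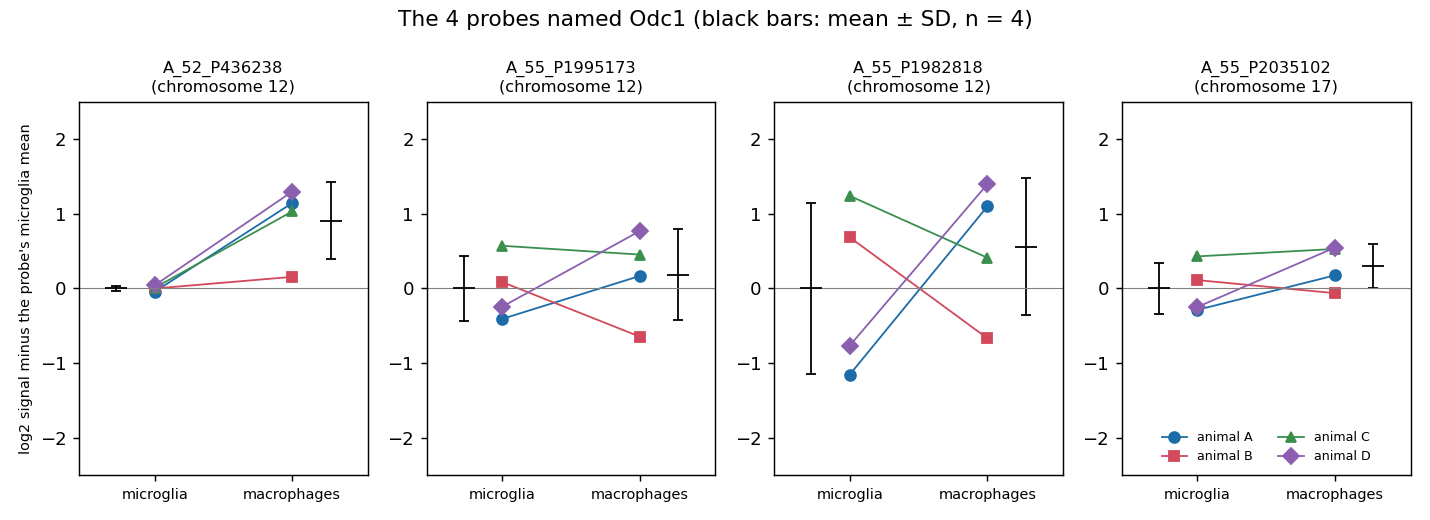
Signal of the 4 Odc1 probes on every array (log2, minus the probe's own microglia mean), with coloured lines joining the samples of each animal and black bars for the mean and SD (n = 4). The coding probe A_52_P436238 separates the groups by 0.91, while the other probes overlap, with differences of 0.18 to 0.56.

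Oat, which turns ornithine towards proline and glutamate in mitochondria, was at 1.27, 0.92, 0.78 and 1.31 in microglia and at 2.09, 0.87, 1.97 and 1.94 in macrophages. Macrophage replicates 1, 3 and 4 lay above all microglia arrays and replicate 2 among them. The difference was 0.65, or 1.57-fold, with a 95% interval from -0.07 to 1.37 (adjusted p = 0.25, limma; exact permutation p = 0.114), and the means were 1.07 ± 0.26 and 1.72 ± 0.57 (SD, n = 4 each).

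Oat was called higher without macrophage replicate 2, by 0.93 or 1.91-fold (adjusted p = 0.0250, limma), with a macrophage mean of 2.0 ± 0.08 (SD, n = 3). With array weights it was called too, by 0.92 (adjusted p = 0.0239). In animal B alone the macrophage sample was lower than the microglia sample, by 0.05, and within slides 1 and 2 the differences were 1.0 and 0.55.

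**Figure D3:**
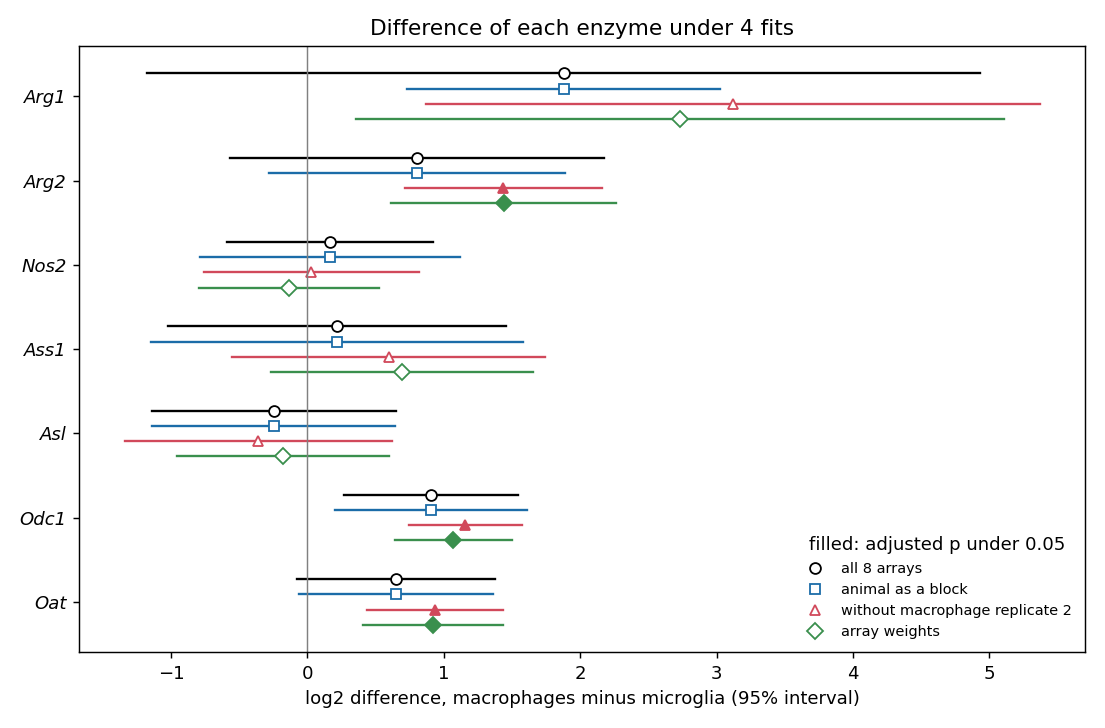
Difference of each arginine enzyme between macrophages and microglia (log2, with 95% intervals from limma) over all 8 arrays, with the animal as a block, without macrophage replicate 2 and with array weights, filled where called. Over all arrays only the interval of Odc1 excludes 0, and without macrophage replicate 2 the differences of Arg1, Arg2, Odc1 and Oat are 3.12, 1.44, 1.16 and 0.93.

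Without macrophage replicate 2, Arg1, Arg2, Odc1 and Oat were each higher on all 3 remaining macrophage arrays than on any microglia array, 4 of 7 members where 20.0% of all genes were so. Among the members these are the ones that make or use ornithine, and all were lowest among the macrophages on the array left out. The other 3 probes of Odc1 did not separate the groups without it. Whether the cells handle ornithine differently was not tested. For Arg1 the margin was slight, with macrophage replicate 1 at 1.52 and microglia replicate 3 at 1.51. Arg1 was also not called without macrophage replicate 2 (adjusted p = 0.0648, limma). The median of the 7 differences was then 0.93, against 0.11 over all genes tested. Array weights called the same 3 members higher as leaving out that array, where 11.6% of all genes were called higher, and limma gave macrophage replicate 2 the lowest weight, 0.202. Without both arrays of animal B, an alternative chosen after the values were seen, Arg2 and Odc1 were called, where 5.09% of all genes were called higher.

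Over the 8 arrays, which share their groups and normalization, the levels of some members followed each other. Pearson's r was 0.937 between Arg2 and Oat, 0.910 between Odc1 and Oat, 0.833 between Arg1 and Arg2 and 0.761 between Arg1 and Odc1 (n = 8). Nos2 ran against Ass1 at -0.823, and Asl had a negative r with every other member. Without macrophage replicate 2 (n = 7) these values were 0.955 for Arg2 and Oat, 0.921 for Odc1 and Oat, 0.775 for Arg1 and Arg2, 0.773 for Arg1 and Odc1 and -0.774 for Nos2 and Ass1, and those of Asl stayed below 0. The genes most like each member over the same arrays were 1700049L16Rik, D8Ertd738e and Ift22 for Arg1 (r = 0.982, 0.971 and 0.969) and Nans, Ehmt2 and Commd1 for Arg2 (0.985, 0.985 and 0.984). For Odc1 they were Cyth1, Gk and Mphosph6 (0.991, 0.991 and 0.988), and for Oat Utp14a, Cct8 and Tcp1 (0.990, 0.986 and 0.984). For Nos2 they were Polr3g, Pja2 and Cfl2 (0.937, 0.936 and 0.930), for Ass1 Emc4, Impdh2 and Dscam (0.983, 0.971 and 0.963), and for Asl Hic1, Etfb and Ceacam20 (0.970, 0.968 and 0.959). They are the highest of 13224 genes over 8 points, given as a description.

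Around the members, 56 other genes of arginine transport and use were listed, of which 43 were tested. Of these, 2 were called higher and 2 lower, where 3.01% and 4.3% of all genes were called. The median of their differences was 0.32, and 30 of 43 were positive. With the animal as a block 1 was called higher and 0 lower, where 1.78% and 2.82% of all genes were called. At an unadjusted p under 0.05 without the block 12 were higher and 5 lower, where 1662 and 1579 of all 13224 genes were. Of the 43, 9 were called higher and 3 lower without macrophage replicate 2, where 9.44% and 7.3% of all genes were called.

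Of 6 tested genes of arginine and ornithine transport, 1 fell. Slc7a7, the light chain of a transporter that exports cationic amino acids, was at 1.75, 1.35, 1.21 and 1.4 in microglia and at 0.92, -0.02, 0.29 and 0.03 in macrophages, without overlap, as were 9.35% of all genes with macrophages lower. It was 2.17-fold lower in macrophages (log2 difference -1.12, adjusted p = 0.0433, limma) and missed the threshold with the animal as a block (adjusted p = 0.0655). Slc7a2, a cationic amino acid importer that supplies arginine to macrophages, had a difference of 1.61 (adjusted p = 0.0926) and of 1.99 without macrophage replicate 2 (adjusted p = 0.0216).

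Of 14 tested genes of polyamine metabolism, 1 fell and none rose. Smox, which oxidises spermine back to spermidine, was at 3.53, 3.62, 3.60 and 3.53 in microglia and at 2.96, 2.75, 2.55 and 2.40 in macrophages. It was 1.87-fold lower in macrophages (-0.90, adjusted p = 0.0349, limma; 0.0958 with the animal as a block), and a further Smox probe gave -1.10 (adjusted p = 0.128 over all probes). Eif5a, the translation factor that carries the polyamine-derived hypusine, had 0.60 (adjusted p = 0.285) and was called without macrophage replicate 2, with 0.90 (adjusted p = 0.0190).

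Of 8 tested genes that lead from ornithine to proline and glutamate none passed the test (limma), and 2 had an unadjusted p under 0.05, both lower. The largest difference was that of Glul, glutamine synthetase, at -1.49 (adjusted p = 0.148), and at -2.0 without macrophage replicate 2 (adjusted p = 0.0142). Glul and Pycr1 were the 2 genes with an unadjusted p under 0.05. Pycr1 was at -0.86 (adjusted p = 0.0716, limma), and at -0.85 without that array (adjusted p = 0.0572). Of the 8 differences 3 were positive, and their median was -0.14. Of the 2 arginyl-tRNA synthetases none passed, and 1 had an unadjusted p under 0.05. Rars, the cytosolic one, had 0.82 (adjusted p = 0.148) and 1.11 without macrophage replicate 2 (adjusted p = 0.00775). The urea cycle enzymes Cps1, Otc and Nags were not tested, being well above background on at most 3, 2 and 2 arrays.

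Of 9 tested genes of nitric oxide synthesis and its control 1 rose, and their median difference was 0.91. Nostrin, which binds endothelial nitric oxide synthase and takes it into the cell, was at 0.48, -0.40, -0.27 and -0.64 in microglia and at 2.11, 4.16, 2.65 and 2.11 in macrophages. It was 7.80-fold higher in macrophages (adjusted p = 0.00918, limma; 0.0385 with the animal as a block), and the call held in each of the 8 fits that leave out 1 array.

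Nos3, the endothelial nitric oxide synthase, was at -1.94, 3.49, -0.67 and -3.10 on macrophage replicates 1 to 4 and well above background on no microglia array. It was at least 9.59-fold higher in macrophages, with an adjusted p of 0.0562 (limma) that missed the threshold, and at least 3.76-fold higher without macrophage replicate 2. Gch1, which makes the first intermediate of the cofactor tetrahydrobiopterin, had a difference of 1.69 (adjusted p = 0.0575). Nos3, Nostrin and Gch1 were each highest on macrophage replicate 2, the array with the highest summed endothelial markers, whose part in these values was not tested. Without that array all of these were called (adjusted p = 0.0101 for Nos3, 0.00242 for Nostrin and 0.0463 for Gch1, limma). The difference was then 2.49 for Nostrin and 1.34 for Gch1. Macrophage replicates 1, 3 and 4 still had endothelial sums of 29.0, 70.7 and 12.4, against 4.37 to 5.73 in microglia. Their part in these calls was not tested either.

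Of 4 tested genes of creatine and agmatine synthesis 1 rose. Gatm, which moves the amidino group of arginine to glycine as the first step of creatine synthesis, was at 2.12, 1.78, 1.47 and 1.53 in microglia and at 3.23, 2.80, 2.76 and 2.64 in macrophages. The groups did not overlap, and Gatm was 2.19-fold higher in macrophages (1.13, adjusted p = 0.0270, limma; 0.0506 with the animal as a block). Slc6a8, the creatine importer, had 1.22 (adjusted p = 0.147) and was called without macrophage replicate 2 (adjusted p = 0.0339).

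**Figure D4:**
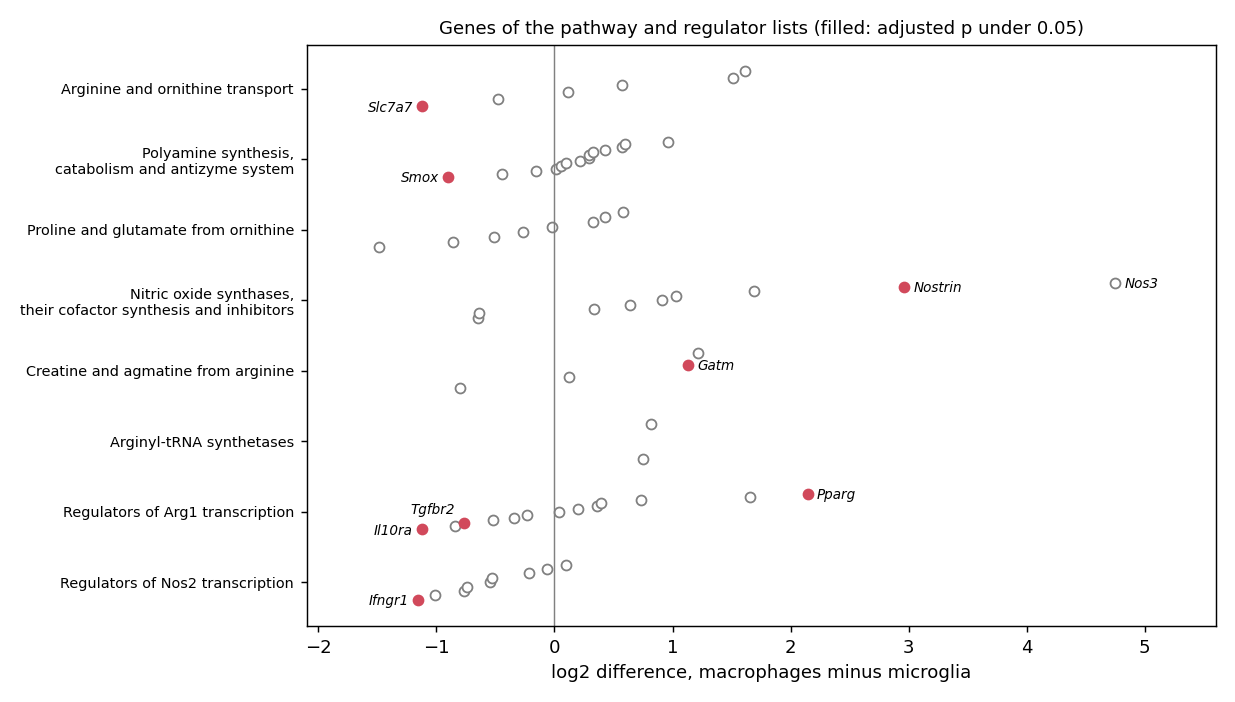
Difference between macrophages and microglia (log2) of the tested genes of the arginine pathway and regulator lists that are reported here, 1 row of points per list, with called genes filled and named, and Nos3, which was not called, named too. Calls are scattered over the lists, with Nostrin at 2.96 the highest called gene and Ifngr1 at -1.15 the lowest.

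Regulators of the 2 enzymes that mark macrophage activation moved in both directions. Of 13 listed regulators of Arg1 1 rose and 2 fell, with a median difference of 0.04. Pparg, a nuclear receptor that induces Arg1, was at least 4.23-fold higher in macrophages (adjusted p = 0.0497, limma), with 3 of 4 microglia arrays well above background. Its groups overlapped, microglia replicate 3 lying at -1.597 and macrophage replicate 2 at -1.603. Il10ra, a chain of the interleukin-10 receptor, fell by 1.12, and Tgfbr2, a receptor of transforming growth factor beta, fell by 0.76 (adjusted p = 0.0371 and 0.0490). Both lost the call with the animal as a block (adjusted p = 0.109 and 0.115).

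Among the listed regulators of Nos2, 1 fell. Ifngr1, a chain of the interferon gamma receptor, fell by 1.15 (adjusted p = 0.0287, limma; 0.0543 with the animal as a block). The calls of Slc7a7, Smox, Il10ra and Pparg each held in 2 of the 8 fits that leave out 1 array, those of Gatm and Ifngr1 in 3 and that of Tgfbr2 in 1. Adjusted over all probes, the same probes of Slc7a7, Pparg and Tgfbr2 missed the threshold (adjusted p = 0.0507, 0.0540 and 0.0614, limma).

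Markers of other cell types also varied between the arrays. On macrophage replicate 2, where Arg1, Arg2, Odc1 and Oat were lowest among the macrophages, the 10 monocyte markers summed to 148, inside the range of the other macrophage arrays, and the microglia markers to 185, below the 422 to 490 of the others. The 8 markers of border macrophages summed to 25.1 there and to 81.0 to 136 on the others, and the 5 erythroid markers to 199.9 there and to 2.37 to 7.37 on the others. The 7 markers of alternatively activated macrophages, without Arg1, summed to 8.32 and 7.59 on macrophage replicates 1 and 2, to 20.8 and 19.7 on replicates 3 and 4, and to 8.16 to 13.9 on the microglia arrays. The 12 neutrophil markers summed to 138 to 173 in microglia and 185 to 232 in macrophages, and Mpo and Elane, which define their precursors, were well above background on no array. The part of these cell types in the members' levels was not tested.

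**Figure D5:**
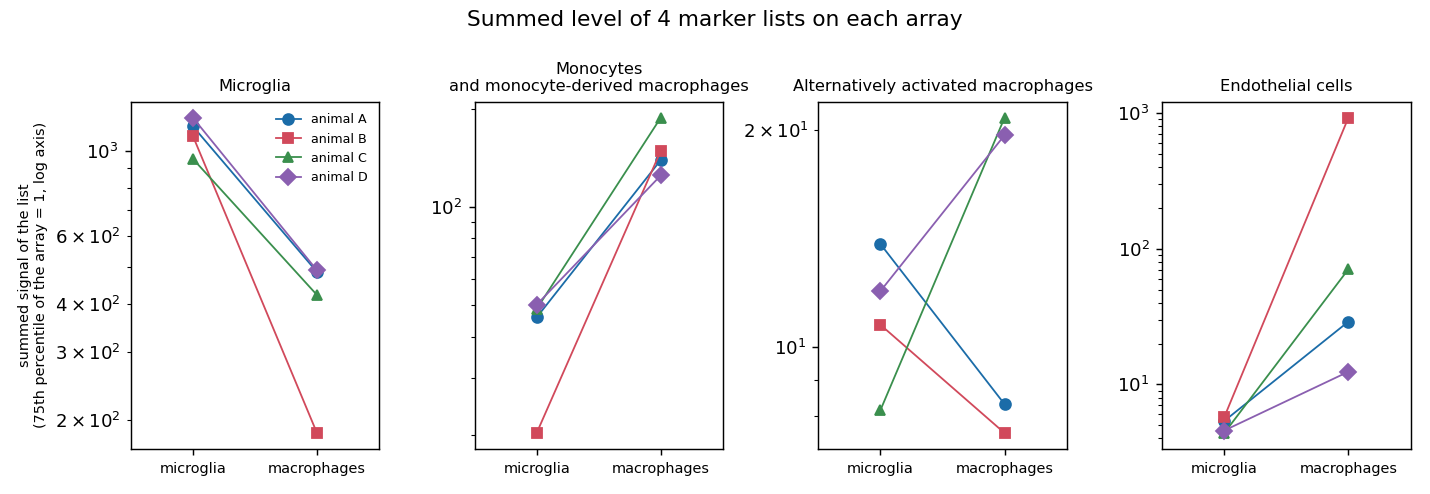
Summed level of the microglia, monocyte, alternatively activated macrophage and endothelial marker lists on every array (signal with the array's 75th percentile set to 1, log axis), with lines joining the samples of each animal. Macrophage replicate 2, of animal B, has the highest endothelial sum, 926, and an alternative activation sum of 7.59.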

How the data were processed

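The arrays were one-colour, Cy3-labelled and read with Agilent Feature Extraction 10.7.3.1, per the file headers, which subtracts background. The processed signal of each spot is an intensity that the authors deposited per array, without scaling across arrays. The authors also deposited a table of log2 values, whose column medians ran from 4.604 to 4.606. Each column had r = 0.996 to 1.000 with its array, and its centring and normalization remain unknown. Per the labels' protocols, mRNA-derived cDNA was amplified by a proprietary global PCR, which can change the proportions of transcripts.

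Of 62976 spots per array, 3671 controls and the 131 to 195 outlier-flagged spots were left out, spots of a probe were averaged, and log2 intensity minus the array's 75th percentile was used. Probes were tested if well above background on at least 4 of 8 arrays, and a gene was represented by whichever tested probe was brightest on average. Names came from accessions (27509 probes), symbols (3549) or synonyms (404) of the GRCm38.p6 RefSeq genes, used for naming alone, while 24219 probes had no name. Coordinates and probe sequences are those of the array files (mm9). Macrophages minus microglia were tested, two-sided, in R 4.3.3 with limma 3.58.1 (lmFit, eBayes) over 13224 genes, with Benjamini-Hochberg adjustment and a threshold of 0.05, after a test on simulated data. Python 3.11.15, pandas 2.3.3, numpy 2.4.6 and matplotlib 3.10.9 prepared tables and plots. Where some or all arrays of the dimmer group were not well above background, a fold "at least" uses the array's lowest signal well above background for them.

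The members, pathway, regulator and marker lists were chosen with earlier results of these data known. Named genes were the members, the called genes of each list (up to 3 per direction, or the largest difference where none was called), and the 3 genes most like each member. Slc7a2, Eif5a, Gch1, Slc6a8, Nos3, Pycr1 and Gm5424 were added after their values were seen. A called gene of the Nos2 regulator list is not reported here. Alternatives changed the scaling, background correction, source of values, dim-probe filter, probe choice, outlier spots, array weights, slide and animal blocks, and left out each array.

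Samples are paired by the animal in the labels. Across genes, how far the microglia and the macrophage array of an animal lay from their group means correlated at 0.0699 in animal A, 0.114 in B, 0.0871 in C and -0.000833 in D. A microglia array matched the macrophage array of its own animal best in every animal except D. Slide 1 held microglia replicates 1 and 2 and macrophage replicate 1, and slide 2 the others.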

Additional observations from a re-analysis of the deposited data

Results flagged for a closer look

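Of 22 groups of 4 values (11 probes, 2 groups), 3 held a sample far from the other 3, where chance alone marks about 1 in 20 groups. Arg2 on macrophage replicate 2 was at a log2 level of -3.30, and its gap to the nearest macrophage array was 0.899 of the group's range. Oat on macrophage replicate 2 was at 0.87, with a gap of 0.876 of the range. Both are from animal B, on the array that also had the highest endothelial markers. Nos2 on microglia replicate 1 was at -3.37, with a gap of 0.851 of the range, and was not well above background there, unlike on the other arrays.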

How the results depend on the processing

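Leaving out 1 array at a time gave 0 to 3 members called higher and 0 lower. The log2 differences then ran from 1.14 to 3.12 (Arg1), 0.55 to 1.44 (Arg2), -0.0598 to 0.36 (Nos2), -0.0883 to 0.60 (Ass1), -0.44 to 0.0508 (Asl), 0.78 to 1.16 (Odc1) and 0.53 to 0.93 (Oat). The other pathway genes ran from 1 to 9 higher and 0 to 3 lower, and all genes from 168 to 1248 higher and 324 to 966 lower. Only the fit without macrophage replicate 2 called members among these 8 fits. Members called higher were 1 with normexp and quantile normalization (Odc1, 0.68), 1 with slide and replicate block by animal together (Arg1, 2.38), 3 with array weights (Arg2 1.44, Odc1 1.07, Oat 0.92) and 2 without animal B (Arg2 1.25, Odc1 1.16). With the animal alone as replicate block the members had the same differences and none was called. Nos2 reversed to -0.24 within slide 2, to -0.14 with array weights and to -0.0598 without microglia replicate 1. Ass1 reversed to -0.48 within slide 1, -0.0129 without microglia replicate 4 and -0.0883 without macrophage replicate 4, and Asl to 0.27 within slide 1 and 0.0508 without macrophage replicate 4. The cause was not tested.

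Other pathway genes called higher were 4 with median centring, 1 without the dim-probe filter, 4 with probes well above background on all arrays of a group, 1 with the replicate block, 1 within slide 1, 0 within slide 2, 10 with array weights and 5 without animal B. Those called lower were 0 with median centring, 4 with the 75th percentile over probes well above background on all arrays, 0 without the filter, 0 with the replicate block, 0 with slide as a block, 1 with slide and replicate block, 0 within either slide, 5 with array weights and 1 without animal B. Over all genes 682 were higher with median centring, 219 without the filter, 236 with the replicate block, 216 with slide as a block, 44 within slide 1, 4 within slide 2, 1533 with array weights and 673 without animal B. Lower were 854 with the alternative 75th percentile, 373 with the replicate block, 169 and 93 within slides 1 and 2 and 1135 with array weights. Median centring moved the median of all differences from 0.04 to 0.25 and the split of calls from 398 higher and 568 lower to 682 and 470, and the alternative percentile moved it to -0.12 and the split to 343 and 854. Weak signals near background limit Nos2, where 1 of 8 arrays was not well above it. Arg2 was well above it on every array, but as dim as Nos2 on microglia replicates 2 and 3 and macrophage replicate 2. The 4 arrays a group limit all intervals.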

Other observations

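Animal B gave the lowest signal of both groups for 17.0% of tested genes, but by at least 1.5 on the log2 scale below the next array in both groups for 26 genes, or 0.197%. Arg1 was among these 26, with gaps of 1.88 in microglia and 3.45 in macrophages. Chil3, a chitinase-like protein of alternatively activated mouse macrophages, had gaps of 2.18 and 2.16. The summed markers of alternatively activated macrophages, without Arg1, did not share this pattern. Among the microglia arrays their sum was lowest on replicate 3, of animal C, at 8.16, and not in animal B. Among the macrophage arrays it was lowest in animal B, at 7.59, but close to the 8.32 of replicate 1. Vegfa, the vascular growth factor, had gaps of 1.74 and 6.56, and Saa3, an acute-phase protein made by macrophages, of 1.52 and 6.66. Ctsk, a collagen-degrading protease, had gaps of 2.97 and 1.97. Others of the 26 were Prss46, with gaps of 3.31 and 5.01, Slc22a26, with 3.06 and 3.05, and Npas1, with 1.67 and 4.02. The genes named are a selection and do not describe the list as a whole. This list, with its cutoff, was made after the values were seen, and carries no test. The samples of animal B lay on different slides.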
